A study of Mus musculus with 2 samples.

Results

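The family of Mir130 and Mir301 microRNA (miRNA) genes was described in small RNA libraries from the forebrain of mouse embryos. Its 4 members, Mir130a, Mir130b, Mir301 (also called Mir301a) and Mir301b, were chosen by gene symbol, and all 4 had a row among the 1973 miRNA gene rows of the deposited count files. The study held 1 group with 2 libraries: small RNA below 30 nt from forebrains of B6NCrl embryos at day 15.5, healthy and with no genetic change or treatment named. Per the labels the libraries are biological replicates 1 and 2, made from males and females pooled together, 78 embryos in replicate 1 and 62 embryos in replicate 2. With 1 group there was no comparison of conditions: levels were described, members were compared within each library, and replicate 1 was set against replicate 2.

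A miRNA is cut as a hairpin from a longer transcript, trimmed to a short mature strand from the 5p or the 3p arm, and loaded into an Argonaute protein, where it pairs with messenger RNAs and lowers their output. Bases 2 to 8 of the mature strand, the seed, do most to set which messages it pairs with, so miRNAs that share a seed are counted as 1 family. The miR-130 and miR-301 family is known for acting on messages of the TGF-beta pathway. In human endothelial cells miR-130a is known to promote vessel growth, and in fat cell precursors miR-130 strands lower PPAR-gamma. In bulk tissue, more cells that make a miRNA and more of it per cell cannot be told apart.

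The 3p mature strands of the family are shown because they carry the shared seed. In the RefSeq table (GRCm38.p6, the same assembly as mm10) all 4 members matched by symbol and 3 of their 3p strands were listed. The seed is in capitals:
mmu-miR-130a-3p: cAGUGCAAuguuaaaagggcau
mmu-miR-130b-3p: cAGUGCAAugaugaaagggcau
mmu-miR-301a-3p: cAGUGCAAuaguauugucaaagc

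The hairpins are shown because the counts were made per hairpin gene and cover both arms. The same 7 letters, again in capitals, occurred once in each of the 4 hairpins, on the 3p side:
Mir130a hairpin: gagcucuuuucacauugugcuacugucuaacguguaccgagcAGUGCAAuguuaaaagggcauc
Mir130b hairpin: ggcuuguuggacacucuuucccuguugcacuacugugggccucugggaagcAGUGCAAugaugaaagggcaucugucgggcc
Mir301 hairpin: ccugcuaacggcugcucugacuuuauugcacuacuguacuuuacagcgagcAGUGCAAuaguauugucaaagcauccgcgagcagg
Mir301b hairpin: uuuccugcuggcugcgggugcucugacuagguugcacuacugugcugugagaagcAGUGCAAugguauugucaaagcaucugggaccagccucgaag

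The hairpins fell into a pair of close subtypes. Compared over the 22 bases that start 1 base before the seed, and counted from 1 at that base, Mir301 and Mir301b differed only by A10G (21 of 22 bases the same). Mir130a and Mir130b differed by U11A and A13G (20 of 22 the same). Between the subtypes 11 to 13 of the 22 bases were the same, and the first difference from another member fell at position 10 or 11 in all 6 pairs. The longest run of bases shared by whole hairpins was 16, between Mir301 and Mir301b, and 12 to 14 in the other pairs. On the 5p arm, Mir301 and Mir301b shared the seed CUCUGAC, while Mir130a had CUCUUUU and Mir130b had CUCUUUC. The predicted minimum free energy of the fold was -22.1 kcal/mol for Mir130a (64 bases), -30.1 for Mir130b (82 bases), -37.0 for Mir301 (86 bases) and -39.1 for Mir301b (97 bases). The order of these energies followed the length of the hairpins and ran opposite to the order of the levels given below. Per base that order was not kept, at -0.345 kcal/mol for Mir130a, -0.367 for Mir130b, -0.430 for Mir301 and -0.403 for Mir301b. A link between energy and level was not tested.

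The 4 genes lie at 3 loci (mm10, GENCODE M21, positions counted from 1). Mir130a, on the minus strand of chromosome 2 (84741115 to 84741178), overlapped no other annotated gene. The gene nearest to it on the same strand was Gm19426, with 990 bases between them. Mir301, on the plus strand of chromosome 11 (87113004 to 87113089), lies in an intron of Ska2, a gene of the spindle and kinetochore machinery that pulls chromosomes apart at mitosis, on the same strand. Mir130b (17124061 to 17124142) and Mir301b (17124400 to 17124496) lie on the minus strand of chromosome 16, both in an intron of 2610318N02Rik on the same strand, with 257 bases between them. Apart from each other, no member had another miRNA gene within 10 kb. None of the host or neighbouring protein genes was measured in these small RNA files.

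Replicate 1 held 4464927 counts on the strand of the miRNA genes and replicate 2 held 4753555. In replicate 1 another 44.6% of all reads, and in replicate 2 another 42.4%, stood in the row for reads placed at more than 1 locus, which has no gene. Levels are in CPM, the count divided by the library's sum over gene rows and scaled so that each library sums to 1000000. Since a small RNA read covers a whole mature strand, CPM was not divided by gene length. Intervals are Clopper-Pearson 95% intervals, and they and the tests on counts cover counting error only, because reads carried no molecular identifiers and may copy the same molecule. The labels do not say whether the pools shared litters or a library batch, so part of their spread may be technical.

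Together the family held 143364 counts in replicate 1 and 159621 in replicate 2. That was 3.21% of gene counts in replicate 1 (interval 3.19 to 3.23) and 3.36% in replicate 2 (interval 3.34 to 3.37), a mean of 3.28% ± 0.104 (SD, n = 2). The 4 genes made up 1.08% of the 370 genes detected, meaning 10 or more counts in replicate 1 and in replicate 2. All 4 members were detected, and each stood above the median level of detected genes, 111 CPM.

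Mir130a was the dominant member. It had 109609 counts (24549 CPM) in replicate 1 and 120237 counts (25294 CPM) in replicate 2, a mean of 24922 ± 527 CPM (SD, n = 2). It ranked 7 among all gene rows in each library, and 363 of the 370 detected genes lay below it. The libraries were close for this gene, with an SD of 2.11% of its mean.

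Mir130b, which differs from Mir130a by a pair of bases over the compared window, came next. Its level was 5015 CPM (22393 counts) in replicate 1 and 5047 CPM (23993 counts) in replicate 2, a mean of 5031 ± 22.7 CPM (SD, n = 2). Of the members it had the smallest spread, 0.451% of its mean. It ranked 39 among all gene rows.

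Mir301, the member in the Ska2 intron, had 10860 counts (2432 CPM) in replicate 1 and 14772 counts (3108 CPM) in replicate 2. Its mean was 2770 ± 477 CPM (SD, n = 2), rank 56, and its SD of 17.2% of the mean was the widest among the members. Relative to its mean, the gap between the libraries was wider for this gene than for any other member, with replicate 1 the lower.

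Mir301b was the lowest member, although still in the middle of the detected profile. It had 502 counts (112 CPM) in replicate 1 and 619 counts (130 CPM) in replicate 2, a mean of 121 ± 12.6 CPM (SD, n = 2). It ranked 182 among all gene rows, and 188 of the 370 detected genes lay below it.

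**Figure D1:**
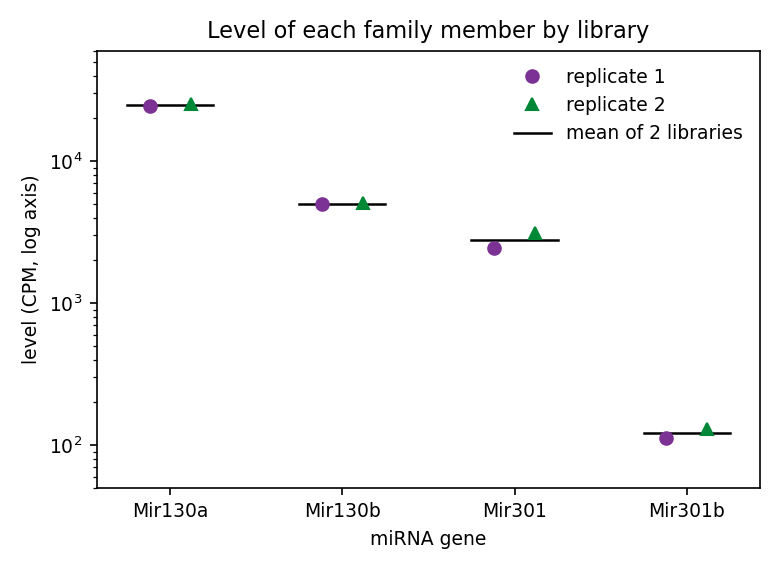
Level of each member in CPM on a log axis, with a circle for replicate 1, a triangle for replicate 2 and a line at the mean of the 2 libraries. The order Mir130a, Mir130b, Mir301, Mir301b was the same in both libraries, from a mean of 24922 CPM down to 121 CPM.

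**Figure D2:**
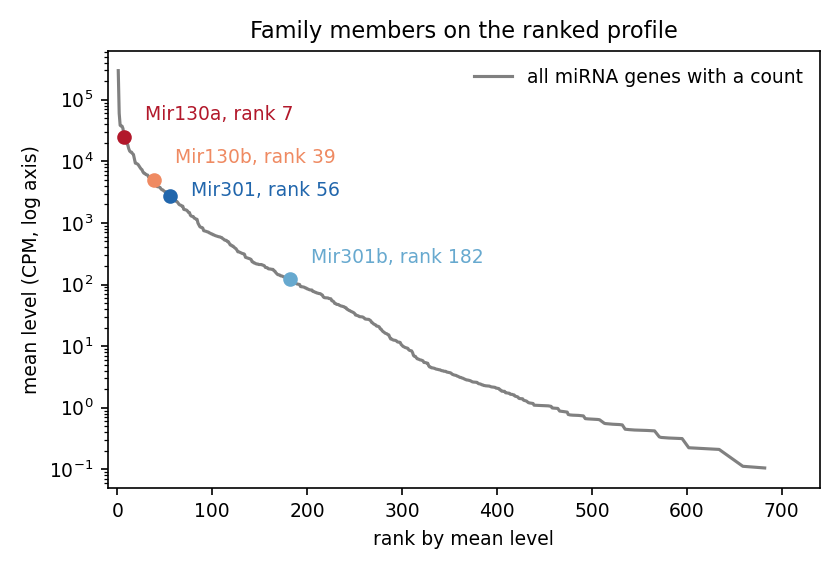
Mean level in CPM on a log axis against rank, for every miRNA gene with a count, with the 4 members marked. Mir130a stood at rank 7, Mir130b at 39, Mir301 at 56 and Mir301b at 182.

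The order of the levels was the same in both libraries, and each step was larger than the SD of either member beside it. Mir130a exceeded Mir130b by 4.89-fold in replicate 1 and 5.01-fold in replicate 2. Mir130b exceeded Mir301 by 2.06-fold in replicate 1 and 1.62-fold in replicate 2, the smallest step and the one that varied most between the libraries relative to its size. Mir301 exceeded Mir301b by 21.6-fold in replicate 1 and 23.9-fold in replicate 2. These folds compare members within a library and do not depend on how libraries are scaled.

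Subtype and locus each grouped genes of very different level. Within the Mir301 subtype, whose compared windows differ by 1 base, the levels differed by 22.7 ± 1.58-fold (SD, n = 2). On chromosome 16, Mir130b exceeded its neighbour Mir301b, in the same intron, by 44.6-fold in replicate 1 and 38.8-fold in replicate 2. To set the chromosome 16 pair beside others, detected genes next to each other on 1 strand with at most 1 kb between them were compared by mean level, a description chosen after the values were seen. The higher gene exceeded the lower by a median of 9.49-fold over 62 such pairs, from 1.16-fold to 1062-fold. The Mir130b and Mir301b pair, at 41.5-fold, was exceeded by 14 of the others. Some of the pairs hold a gene with a numbered copy at another locus, such as Mir19b-1 in the 1062-fold pair. Their folds are uncertain, because reads placed at more than 1 locus stood in a row without a gene. How far this changes the comparison was not tested. Reads placed at more than 1 locus were thus kept out of the gene rows, while the authors' handling of mismatches is not given in the sources. The part of either in the level of Mir301b was not tested. Each of the 3 listed 3p strands occurred whole in only 1 of the 1005 hairpins of the table.

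As a share of the family, Mir130a held 76.5% of its counts in replicate 1 (interval 76.2 to 76.7) and 75.3% in replicate 2 (75.1 to 75.5). Mir130b held 15.6% in replicate 1 (15.4 to 15.8) and 15.0% in replicate 2 (14.9 to 15.2). Mir301 held 7.58% in replicate 1 (7.44 to 7.71) and 9.25% in replicate 2 (9.11 to 9.40). Mir301b held 0.350% in replicate 1 (0.320 to 0.382) and 0.388% in replicate 2 (0.358 to 0.420). In percentage points the largest shift was that of Mir301, which took a smaller share of the family in replicate 1.

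**Figure D3:**
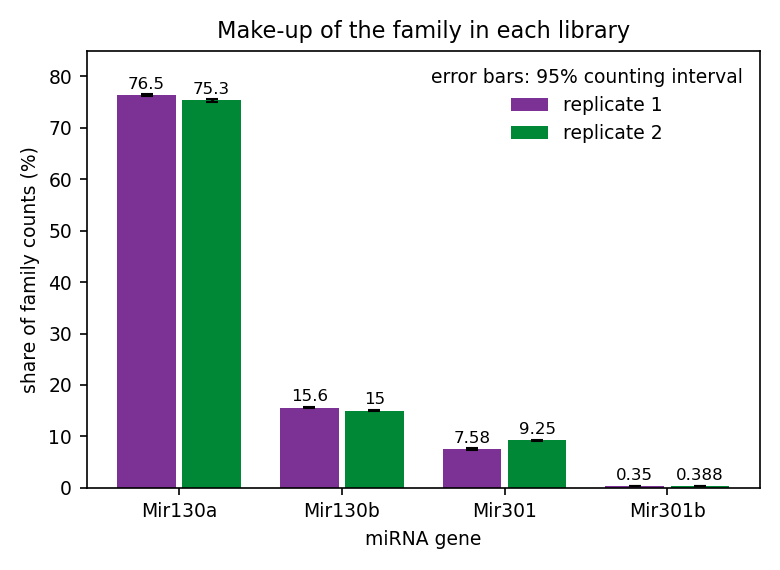
Share of the family's counts held by each member (%), with a bar for replicate 1 beside one for replicate 2 and error bars for the Clopper-Pearson 95% interval. Mir130a held 76.5% in replicate 1 and 75.3% in replicate 2, and Mir301 held 7.58% in replicate 1 and 9.25% in replicate 2.

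Replicate 1 was then set against replicate 2 for every gene whose summed count reached 10. The test was an exact binomial one, two-sided, with Benjamini-Hochberg adjustment over all 457 genes tested. The test compares 2 libraries, not conditions, and has no replicate check. Of the 457 genes, 36.3% were called at an adjusted p below 0.05, 17.1% higher and 19.3% lower in replicate 1. Of the genes called, 47.0% were higher in replicate 1, against 57.1% with TMM scaling, 52.1% with DESeq2 scaling, 61.6% with totals over all reads and 30.9% with the most abundant gene left out of the totals. In the family 3 of the 4 members were called, each lower in replicate 1. The members called were 1, lower, with TMM scaling, 2, both lower, with DESeq2 scaling and 4, all lower, with the most abundant gene left out of the totals. With totals over all reads 3 were called, 1 lower and 2 higher in replicate 1. The median log2 ratio was -0.13 over the 4 members and -0.047 over all genes tested.

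Mir301 was lower in replicate 1 by a log2 ratio of -0.35 (interval -0.39 to -0.32; exact binomial test, adjusted p = 3.71e-83), and it stayed lower and called under every scaling run. Of the 370 detected genes, 98 had a larger absolute ratio than Mir301. Mir301b had a log2 ratio of -0.21 (interval -0.38 to -0.040; exact binomial test, adjusted p = 0.0431), a call that was lost with TMM scaling, DESeq2 scaling and totals over all reads. Mir130a had a log2 ratio of -0.043 (interval -0.055 to -0.031; exact binomial test, adjusted p = 5.41e-12), which lost its call with TMM scaling (-0.0029). With totals over all reads Mir130a was called higher in replicate 1, at 0.021 (exact binomial test, adjusted p = 0.00138), and its adjusted p ran from 4.12e-64 to 0.774 over the alternatives. Mir130b was not called, at -0.0092 (interval -0.036 to 0.017; exact binomial test, adjusted p = 0.671), and its sign turned, without a call, with TMM and DESeq2 scaling. It was called higher in replicate 1 with totals over all reads, at 0.055 (exact binomial test, adjusted p = 0.000148), and lower with the most abundant gene left out of the totals, at -0.069 (adjusted p = 1.34e-06). Its adjusted p ran from 1.34e-06 to 0.776 over the alternatives.

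The spread between replicates that edgeR fitted over the 370 detected genes, as a coefficient of variation at each member's level, gives a scale for these ratios. It was 12.6% at the level of Mir130a, 13.2% at that of Mir130b, 13.6% at that of Mir301 and 16.0% at that of Mir301b. The members' own SDs, as a percent of the mean, were 2.11% for Mir130a, 0.451% for Mir130b, 17.2% for Mir301 and 10.4% for Mir301b. Of the members, only Mir301 had an SD above the fitted spread at its level. Each SD rests on n = 2, uses plain library totals and includes counting error. The fitted spread followed TMM scaling and sets counting error apart, so the measures are not fully alike. An SD from n = 2 does not set Mir301 apart. Of the 370 detected genes 98 had a larger absolute ratio, but they were counted at every level and not matched to that of Mir301.

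**Figure D4:**
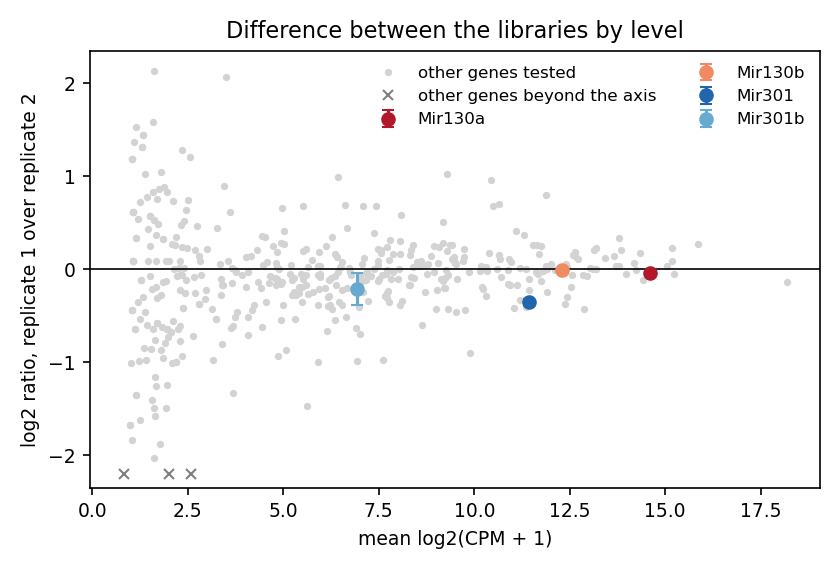
Log2 ratio of replicate 1 over replicate 2 against mean log2(CPM + 1), for the genes tested, with the 4 members in colour and their 95% counting intervals as bars, and crosses at the edge for genes beyond the axis. Mir301 lay lowest of the members at -0.35, Mir301b at -0.21, and Mir130a and Mir130b near 0 at -0.043 and -0.0092.

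Outside the 4 members, 4 miRNAs found in the RefSeq table carry the same seed, by its letters at bases 2 to 8. The table lists 1738 mature strands, and any match on a single autosome was dropped from the list. The list may therefore be incomplete. The 4 are shown because they are the other strands found with this seed:
mmu-miR-130c: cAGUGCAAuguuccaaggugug
mmu-miR-6341: cAGUGCAAugauauugucacuau
mmu-miR-6389: cAGUGCAAuguuaaacuuugc
mmu-miR-721: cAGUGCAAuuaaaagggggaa

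The genes Mir130c and Mir6341 had 0 counts in both libraries, which allows a level of up to 0.672 CPM in replicate 1 and 0.631 CPM in replicate 2 (3 counts). Mir6389 had 1 count in replicate 1 and 0 in replicate 2. Mir721 had no row and was not analysed here. Of the same-seed genes listed here that had a row, the 4 members thus held all counts in both libraries except that 1. Any same-seed genes on the autosome that was dropped were not counted.

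The detected genes nearest to each member by mean log2(CPM + 1) over the 2 libraries were named as a measure of likeness in level alone. They were Mir99b (21918 ± 1284 CPM) and Mir30e (20640 ± 1764 CPM) for Mir130a, and Mir151 (5061 ± 4.27 CPM) and Mir16-1 (5193 ± 76.2 CPM) for Mir130b. For Mir301 they were Mir140 (2772 ± 300 CPM) and Mir484 (2781 ± 144 CPM), and for Mir301b they were Mir1247 (128 ± 59.4 CPM) and Mir30b (120 ± 12.0 CPM), each mean ± SD with n = 2. Mir301, Mir140 and Mir484 were not separated by their SDs, nor were Mir301b, Mir1247 and Mir30b. Mir130a stood above Mir99b and Mir30e, and Mir130b below Mir151 and Mir16-1, in each of these 4 pairs by more than the larger SD of the pair. With n = 2 these SDs can be small by luck. In log2, Mir151 lay only 0.0086 and Mir16-1 only 0.045 above Mir130b, both small beside the fitted spread of 13.2% at its level.

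The forebrain label was checked against neural miRNAs, among them Mir137, Mir92b, Mir153 and the Mir9, Mir124a and Mir128 genes. Of 11 listed genes, 10 had a row and 7 were detected, summing to 20503 CPM in replicate 1 and 20790 CPM in replicate 2, with no row at 0 in both. Their median log2 ratio was -0.13 over the 10 genes with a row, with 2 called higher and 3 called lower in replicate 1 by the same test. Mir124a-3, with 0 counts in replicate 1 and 10 in replicate 2, was among the lower. Of the detected genes, Mir92b (-0.30) and Mir153 (-0.42) lay below 0 and the others above. The median was thus below 0 only with the Mir124a genes, none of them detected, counted in. The Mir124a genes stood between 1.05 and 2.80 CPM, and near-identical copies of the Mir124a and Mir9 genes make these levels uncertain where reads fell on more than 1 locus.

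Also counted were miRNAs listed for other cell types that the dissected tissue could hold. Endothelial Mir126a stood at 15856 CPM in replicate 1 and 16377 CPM in replicate 2, while Mir126b had no row. The ratio of Mir126a (log2, -0.047) equalled, as rounded, the median of all genes tested (-0.047). Mir130a, at -0.043, also lay close to that median, so its likeness to Mir126a is not specific to endothelial cells. The 5 mesenchyme and mural genes (Mir143, Mir145a, Mir199a-1, Mir199a-2 and Mir214) summed to 3437 CPM in replicate 1 and 3780 CPM in replicate 2, with 0 higher and 2 lower in replicate 1 (median log2 ratio -0.18 over 4 genes tested). Most of this sum was Mir143, with 3304 CPM in replicate 1 and 3613 CPM in replicate 2. Mir199a-2 had 12 counts in replicate 1 and 14 in replicate 2, and Mir199a-1 had 0 and 2 and was not tested. The 3 erythroid genes (Mir451a, Mir144 and Mir486) summed to 140 CPM in replicate 1 and 165 CPM in replicate 2, with 1 lower (median -0.22). Myeloid Mir223 stood at 77.3 CPM in replicate 1 and 98.7 CPM in replicate 2 (log2 ratio -0.35), and Mir142 had no row. By their median log2 ratios all 4 lists of other cell types were below 0, as were the neural list with its Mir124a genes, the family and all genes tested. With totals over all reads Mir126a came to 0.018 and the median of all genes to 0.018, while the medians of the other lists and of the members stayed below 0. The part of these cell types in the levels and ratios of the members was not tested.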

How the data were processed

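The files held raw, unnormalized counts for each miRNA gene in the 2 libraries, the form in which the authors deposited them. Alignment was to mm10 with GENCODE M4 annotation, per the deposited file descriptions. The sources used here name no aligner, counter or settings. Sense counts came from the third column, and totals and tests left out the 4 rows without a gene. Symbols came from GENCODE M21 by gene identifier (1894 of 1973 rows matched), and sequences from RefSeq GRCm38.p6. The members and marker lists were chosen with earlier results of these data known.

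CPM, SDs, intervals and the exact binomial test were computed in Python 3.11.15 with scipy 1.17.1, adding 0.5 counts to each library in log2 ratios. The test was tried on simulated data. Alternative scalings and the spread came from edgeR 4.0.16 and DESeq2 1.42.0, folds from RNAfold 2.7.2. No quasi-likelihood test was run, since 1 group holds no contrast. Named were the members, same-seed genes, genes within 10 kb, the 2 genes nearest in level to each member, hosts and markers. The alternatives tried were other scalings, counts summed over both strands, other minimums and pseudocounts, and leaving out each library.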

Additional observations from a re-analysis of the deposited data

Results flagged for a closer look

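Mir130a had 5 counts on the opposite strand in replicate 1, above the 3 counts that a row with no count allows, in a column that the comparisons did not use. It had 0 such counts in replicate 2, and the other members had 0 in both libraries. Its counts on the strand of the gene were 109609 in replicate 1.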

How the results depend on the processing

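With TMM scaling the members called fell to 1, with log2 ratios of -0.0029 for Mir130a, 0.031 for Mir130b and -0.17 for Mir301b. With DESeq2 scaling 2 members were called, and Mir130b came to 0.018 and Mir301b, no longer called, to -0.18. With totals over all reads, Mir130a was called higher in replicate 1 at 0.021 (exact binomial test, adjusted p = 0.00138) and Mir130b likewise at 0.055 (adjusted p = 0.000148), while Mir301b, no longer called, came to -0.15. Levels per 1000000 reads were 9265, 1871, 1027 and 45.0 for Mir130a, Mir130b, Mir301 and Mir301b. With Mir99a, the most abundant gene, out of the totals, all 4 members were called lower, Mir130b at -0.069, the levels were 35466, 7158, 3951 and 173 in the same order and the family held 4.67% of counts. These levels moved because the totals were larger or smaller by construction. Adjusted p-values (exact binomial test) of Mir301b ran from 0.00557 to 0.194 over the alternatives, and those of Mir130a from 4.12e-64 to 0.774. With a minimum of 1 count 2 members were called and Mir301b lost its call at -0.21, since more genes were tested. With counts on either strand, the mean level of Mir130b was 4954 CPM. Leaving out a library leaves the other library's values, and with n = 2 their distance from the mean is below the SD by construction, so it says nothing about stability. No paired analysis was possible because the series holds 1 group.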
